A study of Saccharomyces cerevisiae with 20 samples.

Results

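Glycolysis turns glucose into pyruvate, and fermentation turns pyruvate into ethanol. The transcripts described here encode 10 of these enzymes in budding yeast (*Saccharomyces cerevisiae*): FBA1, TPI1, TDH1, TDH2, TDH3, PGK1, ENO1, ENO2, CDC19 and PDC1. They were taken by gene symbol, and all 10 were found among the 6106 transcripts counted and passed the filter on low counts in every comparison. The list was drawn up as one of abundant enzymes with close paralogs, so high abundance and the presence of paralogs are properties of the choice and not results. For FBA1, TPI1 and PGK1, however, the pathway genes considered here hold no paralog. In yeast grown on glucose these genes are among the most strongly transcribed by RNA polymerase II, largely through the regulators Rap1, Gcr1 and Gcr2. Their mRNAs carry an m7G cap as a rule. A small part of the mRNA of a cell can instead start with NAD, the cofactor that TDH1, TDH2 and TDH3 proteins reduce in glycolysis.

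Libraries came from 2 strains of the BY4741 background, *xrn1-H41A* and WT, harvested in exponential phase. The labels give YPD as the medium for every sample, while the methods of the study name glucose/glycerol as its carbon source. In *xrn1-H41A*, the exoribonuclease Xrn1, one of the enzymes that remove NAD caps, carries a substitution that disrupts the removal of NAD caps. RNA of 3 independent biological replicates of each strain was sequenced after NADcapPro, after SPAAC and as standard RNA-seq, which makes 6 groups of 3 libraries. In SPAAC, the enzyme ADPRC replaces the nicotinamide of the NAD cap with an azide, a biotin is clicked to the azide without copper, and the RNA is captured on streptavidin. In NADcapPro, the RNA is first treated with Dcs1, which hydrolyzes m7G caps. The input was polyA RNA for NADcapPro and SPAAC. For standard RNA-seq the input is not stated. The labels name a strain for each of the 2 libraries made without ADPRC, but the names beside their counts do not. These libraries were not used here, so capture without ADPRC was not measured for these transcripts.

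Total counts ranged from 13038320 to 33816015 in the 18 libraries of the 6 groups, so that 3 counts corresponded to at most 0.23 CPM (counts scaled to the library total). The mRNA of the mutated gene, XRN1, was present in both strains, with a log2 fold change of -0.61 in *xrn1-H41A* over WT RNA-seq. Such counts do not show the substitution and therefore do not check the strain labels. Levels below are CPM after TMM normalization across the 18 libraries, and fold changes come from edgeR fits on the 2 groups compared. Where libraries were scaled by their totals alone, the median log2 fold change of all transcripts tested moved by 0.26 (*xrn1-H41A*) and 0.15 (WT) for NADcapPro over RNA-seq. It moved by -0.38 and -0.31 for SPAAC over RNA-seq, by 0.81 and 0.61 for NADcapPro over SPAAC, and by 0.18 for *xrn1-H41A* over WT RNA-seq. The changes reported are relative to the median transcript of TMM. A level is a proportion of the RNA in a library, and less of a transcript per cell cannot be told apart from fewer cells that hold it.

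All 10 genes have a single exon, and no annotated gene overlaps them. The transcript models are coding lengths of 747 to 1692 nucleotides. Kallisto assigns reads by short words of a transcript, and a read that fits several transcripts is divided among them. With words of 31 bases, every word of FBA1, TPI1, PGK1 and CDC19 was found in no other transcript, and 96.5% of the words of PDC1 were its own. The share was 73.7% for TDH1, 56.8% for TDH3 and 49.4% for TDH2, and 61.2% for ENO1 and for ENO2. Counts of these 5 genes therefore rest in part on how shared reads were divided and are uncertain to that extent. TDH2 and TDH3 were identical at 95.8% of 999 positions, TDH1 and TDH2 at 90.2%, TDH1 and TDH3 at 88.9%, and ENO1 and ENO2 at 94.8% of 1314 positions.

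The longest run shared by TDH2 and TDH3, 173 bases at positions 355 to 527 of the coding sequence, is shown because no read inside it can separate these genes. Capitals mark the 18 bases at which TDH1 differs from TDH3. All sequences are from RefSeq, assembly R64, written 5′ to 3′ along the coding strand.
TDH1 chrX:338625-338797 plus strand: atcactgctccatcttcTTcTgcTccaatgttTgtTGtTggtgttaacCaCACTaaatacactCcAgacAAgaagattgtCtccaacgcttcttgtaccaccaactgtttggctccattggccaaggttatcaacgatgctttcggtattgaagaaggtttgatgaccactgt
TDH2 chrX:454155-454327 minus strand: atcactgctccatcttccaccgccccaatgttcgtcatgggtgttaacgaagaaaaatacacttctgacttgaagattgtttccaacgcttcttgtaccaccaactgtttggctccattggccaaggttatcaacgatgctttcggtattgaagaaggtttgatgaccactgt
TDH3 chrVII:883284-883456 minus strand: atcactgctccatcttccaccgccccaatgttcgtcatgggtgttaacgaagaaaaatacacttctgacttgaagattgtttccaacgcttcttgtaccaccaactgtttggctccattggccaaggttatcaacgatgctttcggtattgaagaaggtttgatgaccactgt

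The window of 90 bases at positions 34 to 123 is the one with most differences between TDH2 and TDH3, where reads do separate these genes. TDH1 played no part in its choice. Capitals mark bases that differ from TDH3, 20 in TDH1 and 13 in TDH2.
TDH1 chrX:338304-338393 plus strand: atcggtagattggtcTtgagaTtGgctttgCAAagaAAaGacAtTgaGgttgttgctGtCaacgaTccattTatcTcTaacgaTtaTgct
TDH2 chrX:454559-454648 minus strand: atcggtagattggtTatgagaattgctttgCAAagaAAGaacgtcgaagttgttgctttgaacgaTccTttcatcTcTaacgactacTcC
TDH3 chrVII:883688-883777 minus strand: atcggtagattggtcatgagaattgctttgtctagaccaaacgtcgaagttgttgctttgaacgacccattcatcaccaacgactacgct

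For the enolases, the window of 90 bases with most differences lies at positions 155 to 244, where ENO1 differs from ENO2 at the 13 bases in capitals. Elsewhere the genes share an identical run of 112 bases, printed last for ENO1 alone.
ENO1 chrVII:1001081-1001170 plus strand: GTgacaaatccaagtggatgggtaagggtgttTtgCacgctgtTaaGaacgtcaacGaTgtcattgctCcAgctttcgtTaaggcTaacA
ENO2 chrVIII:451481-451570 plus strand: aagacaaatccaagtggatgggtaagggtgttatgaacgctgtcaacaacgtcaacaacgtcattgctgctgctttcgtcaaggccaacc
ENO1, run shared with ENO2, chrVII:1001477-1001588 plus strand: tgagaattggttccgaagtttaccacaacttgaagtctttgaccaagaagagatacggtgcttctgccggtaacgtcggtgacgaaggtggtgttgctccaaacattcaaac

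Per length, TDH3 was the highest of the 10 transcripts and TDH1 the lowest in each of the 6 groups, with ENO1 next to lowest throughout. TDH3 averaged 5856 ± 238 TPM (SD, n = 3) in the NADcapPro libraries of *xrn1-H41A*, 18981 ± 374 in SPAAC and 10167 ± 394 in RNA-seq. In WT it averaged 7836 ± 685 TPM in NADcapPro, 23590 ± 700.2 in SPAAC and 13782 ± 269 in RNA-seq (SD, n = 3). TDH1 averaged 35.4 ± 0.800, 61.3 ± 3.39 and 60.5 ± 1.28 TPM in the 3 *xrn1-H41A* groups in the same order, and 248 ± 2.71, 183 ± 2.62 and 217 ± 1.76 in the 3 WT groups. Between these ends the order depended on the assay. ENO2 was in second place in *xrn1-H41A* SPAAC, *xrn1-H41A* RNA-seq and WT SPAAC and in the third in WT RNA-seq, but in the fifth in *xrn1-H41A* NADcapPro and in the fourth in WT NADcapPro. TPI1 was in second place in NADcapPro of both strains, at 1798 ± 63.9 TPM in *xrn1-H41A* and 4154 ± 56.1 TPM in WT (SD, n = 3). In WT RNA-seq and WT SPAAC no neighbours in the order overlapped. The ranges of neighbours overlapped for FBA1 with PDC1 and for CDC19 with TDH2 in *xrn1-H41A* NADcapPro, for PDC1 with TPI1 and for TDH2 with CDC19 in *xrn1-H41A* SPAAC, for PDC1 with FBA1 and for CDC19 with PGK1 in *xrn1-H41A* RNA-seq, and for CDC19 with TDH2 in WT NADcapPro.

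Together the 10 transcripts took a smaller share of the counts in NADcapPro than in RNA-seq and a larger share in SPAAC. In *xrn1-H41A* they took 3.11, 3.09 and 3.16% of all counts in the NADcapPro libraries, 11.99, 12.2 and 11.99% in SPAAC and 6.69, 6.99 and 7.11% in RNA-seq. In WT the shares were 5.78, 5.81 and 6.19% in NADcapPro, 15.3, 15.2 and 14.8% in SPAAC and 9.46, 9.38 and 9.49% in RNA-seq. No library of one assay reached the range of another within a strain, and every *xrn1-H41A* library lay under the WT libraries of its assay. With 3 libraries against 3, the exact permutation test (two-sided) cannot go below 0.1, and it gave 0.1 for each assay against RNA-seq in either strain and for *xrn1-H41A* against WT RNA-seq (0.111 after Benjamini-Hochberg adjustment over 20 comparisons of shares).

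**Figure D1:**
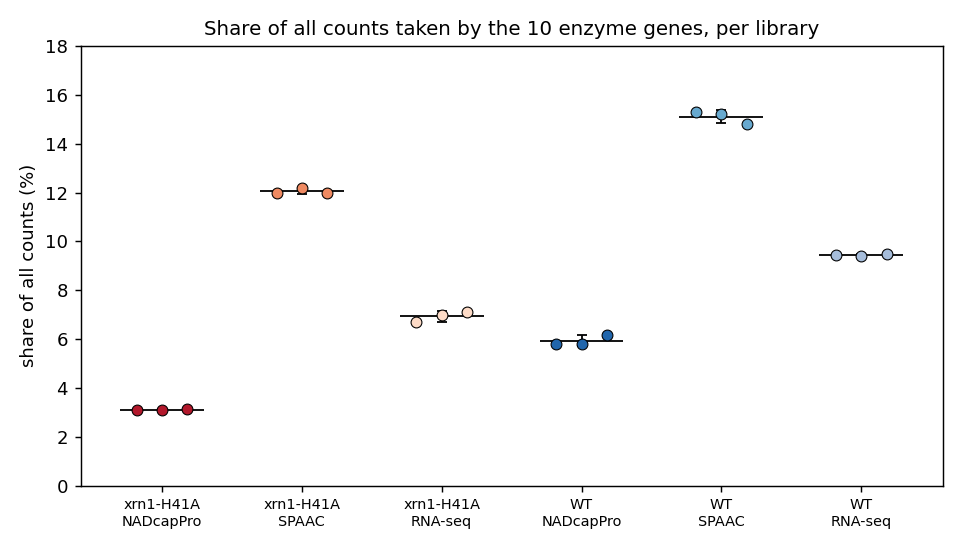
Share of all counts taken by the 10 enzyme genes, in percent, for each library of the 6 groups. Points are libraries, and lines with bars are the mean and SD of 3 libraries. SPAAC is highest and NADcapPro lowest in each strain, with 3.11, 3.09 and 3.16% in *xrn1-H41A* NADcapPro and 15.3, 15.2 and 14.8% in WT SPAAC.

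The levels of each transcript are given in the order of the pathway. FBA1 (YKL060C, R64 chromosome XI, 326408 to 327487, minus strand) encodes aldolase, which splits fructose 1,6-bisphosphate. FBA1 was at 2255, 2239 and 2259 CPM in the *xrn1-H41A* NADcapPro libraries, 13243, 13239 and 13502 in SPAAC and 6465, 6914 and 6969 in RNA-seq. The WT levels were 6948, 7160 and 7099 CPM in NADcapPro, 26927, 26488 and 25427 in SPAAC and 14084, 14091 and 14413 in RNA-seq. The NADcapPro libraries were lowest and the SPAAC libraries highest in each strain, with no overlap between the groups of a strain. TPI1 (YDR050C, R64 chromosome IV, 555726 to 556472, minus strand) encodes triose phosphate isomerase, which interconverts the products of aldolase. TPI1 was at 1545, 1562 and 1609 CPM in the *xrn1-H41A* NADcapPro libraries, 7006, 6945 and 7193 in SPAAC and 3238, 3438 and 3334 in RNA-seq. WT cells had 4952, 5012 and 5099 CPM in NADcapPro, 12082, 11998 and 11727 in SPAAC and 5940, 6024 and 5891 in RNA-seq. The groups had the same order as for FBA1, but WT NADcapPro lay closer to WT RNA-seq than for FBA1.

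TDH1, TDH2 and TDH3 encode isoforms of glyceraldehyde-3-phosphate dehydrogenase, the step that reduces NAD. TDH3 (YGR192C, R64 chromosome VII, 882812 to 883810, minus strand) is the main isoform in growing cells. TDH3 was at 8141, 7986 and 8411 CPM in the *xrn1-H41A* NADcapPro libraries, 40328, 40611 and 40658 in SPAAC and 14028, 15073 and 15071 in RNA-seq. Its WT levels were 14435, 14612 and 17027 CPM in NADcapPro, 63631, 62611 and 59622 in SPAAC and 23237, 23183 and 23457 in RNA-seq. WT NADcapPro replicate 3 was above the other libraries of its group, and the groups of a strain did not overlap. TDH2 (YJR009C, R64 chromosome X, 453683 to 454681, minus strand) lies on the same chromosome as TDH1. TDH2 was at 1005, 1007 and 1012 CPM in the *xrn1-H41A* NADcapPro libraries, 6190, 6271 and 6352 in SPAAC and 2070, 2242 and 2249 in RNA-seq. In WT the values were 2916, 2986 and 3326 CPM in NADcapPro, 13154, 12883 and 12479 in SPAAC and 4895, 4966 and 4900 in RNA-seq. Its order by assay was that of TDH3. TDH1 (YJL052W, R64 chromosome X, 338271 to 339269, plus strand) is known as the isoform of slowly growing or stressed cells. TDH1 was at 51.2, 49.0 and 49.8 CPM in the *xrn1-H41A* NADcapPro libraries, 126, 136 and 132 in SPAAC and 84.0, 91.9 and 86.8 in RNA-seq. WT values were 479, 488 and 498 CPM in NADcapPro, 496, 481 and 479 in SPAAC and 364, 371 and 368 in RNA-seq. In *xrn1-H41A* its order was that of TDH3, whereas in WT the NADcapPro and SPAAC libraries overlapped and both lay above RNA-seq.

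PGK1 (YCR012W, R64 chromosome III, 137746 to 138996, plus strand) encodes phosphoglycerate kinase, the first step of glycolysis that yields ATP. PGK1 was at 1681, 1681 and 1671 CPM in the *xrn1-H41A* NADcapPro libraries, 6620, 6722 and 6658 in SPAAC and 4947, 5288 and 5257 in RNA-seq. For WT they were 3351, 3415 and 3585 CPM in NADcapPro, 10544, 10435 and 10055 in SPAAC and 9315, 9181 and 9324 in RNA-seq. SPAAC and RNA-seq were close to each other in WT, without overlap, and NADcapPro lay far under both. ENO1 and ENO2 encode enolase, which forms phosphoenolpyruvate, and ENO2 is the isoform induced by glucose. ENO2 (YHR174W, R64 chromosome VIII, 451327 to 452640, plus strand) had the widest spread across the assays of a strain on a log scale. ENO2 was at 2419, 2464 and 2464 CPM in the *xrn1-H41A* NADcapPro libraries, 31489, 31283 and 30747 in SPAAC and 11545, 12248 and 12444 in RNA-seq. WT libraries had 6020, 6200 and 6346 CPM in NADcapPro, 42463, 41444 and 39147 in SPAAC and 17000, 17166 and 17078 in RNA-seq. Here too NADcapPro was lowest and SPAAC highest. ENO1 (YGR254W, R64 chromosome VII, 1000927 to 1002240, plus strand) had another order in WT. ENO1 was at 717, 686 and 711 CPM in the *xrn1-H41A* NADcapPro libraries, 1166, 1167 and 1191 in SPAAC and 786, 921 and 939 in RNA-seq. The WT values were 2754, 2732 and 3155 CPM in NADcapPro, 2224, 2164 and 2084 in SPAAC and 1777, 1802 and 1759 in RNA-seq. The WT NADcapPro libraries were above those of the other WT groups, while in *xrn1-H41A* they were lowest and came near to RNA-seq replicate 1.

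CDC19 (YAL038W, R64 chromosome I, 71786 to 73288, plus strand) encodes the main pyruvate kinase, which yields ATP and pyruvate. CDC19 was at 1702, 1692 and 1731 CPM in the *xrn1-H41A* NADcapPro libraries, 10042, 10228 and 9519 in SPAAC and 6005, 6420 and 6620 in RNA-seq. WT levels stood at 5336, 5488 and 5576 CPM in NADcapPro, 11995, 11985 and 11394 in SPAAC and 9690, 9405 and 9677 in RNA-seq. The assays kept the order of FBA1 in both strains. PDC1 (YLR044C, R64 chromosome XII, 232390 to 234081, minus strand) encodes the main pyruvate decarboxylase, the first step of ethanol fermentation. PDC1 was at 3613, 3650 and 3771 CPM in the *xrn1-H41A* NADcapPro libraries, 19346, 20796 and 20651 in SPAAC and 11835, 12364 and 12981 in RNA-seq. The WT libraries gave 6829, 6956 and 7082 CPM in NADcapPro, 18363, 18227 and 17649 in SPAAC and 12374, 12024 and 11967 in RNA-seq. Again NADcapPro was lowest and SPAAC highest, and the RNA-seq libraries of *xrn1-H41A* overlapped those of WT.

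**Figure D2:**
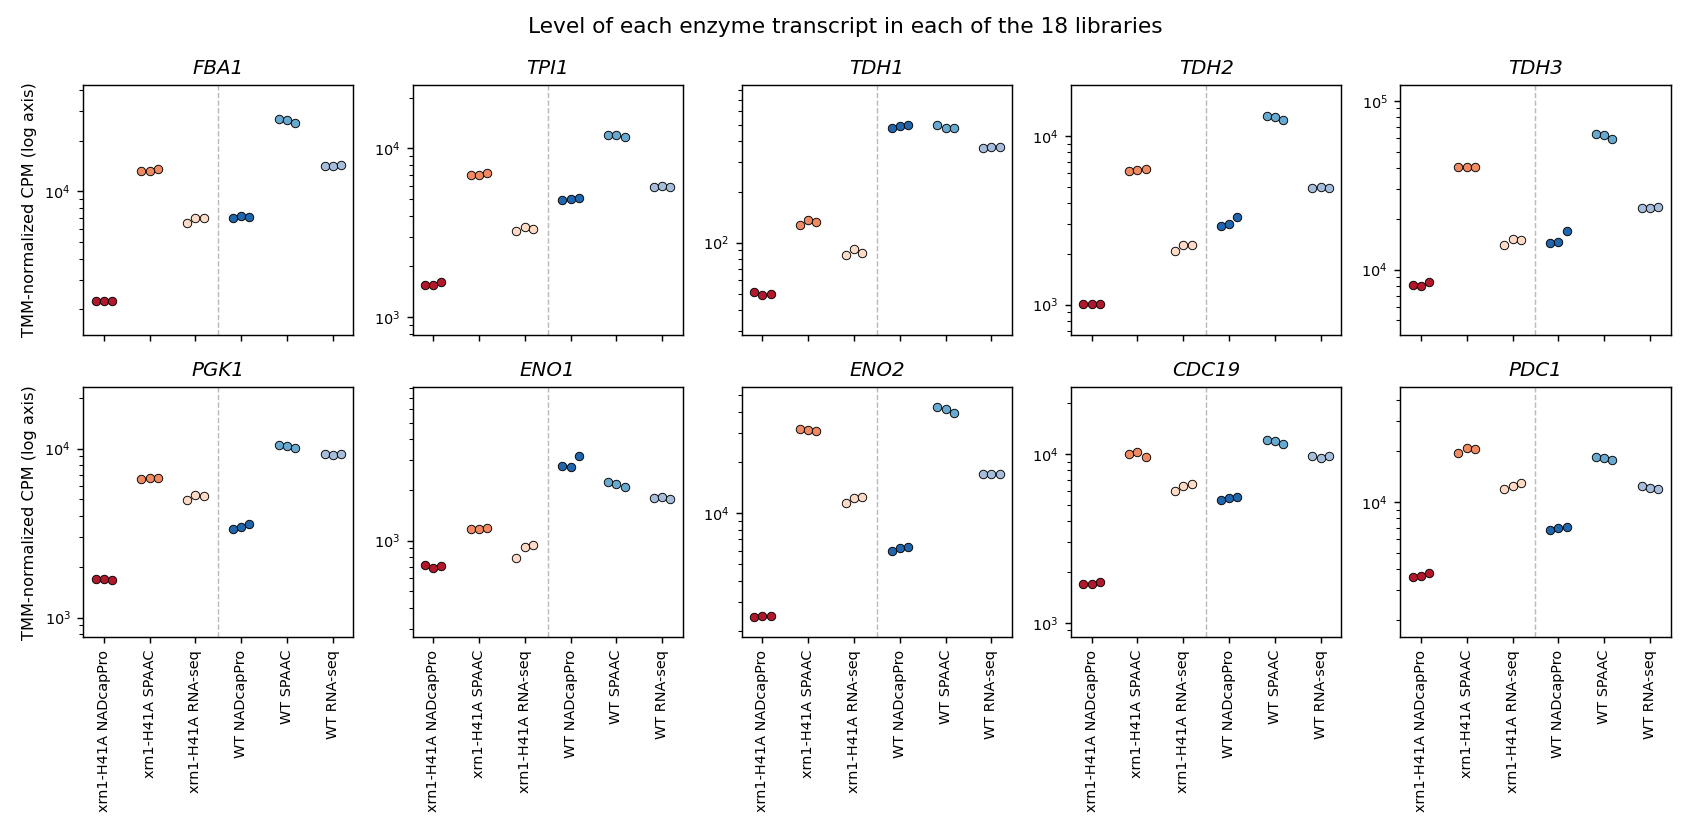
TMM-normalized CPM (log axis, the same fold range in every panel) of each enzyme transcript in each of the 18 libraries, with *xrn1-H41A* groups left of the dashed line and WT groups right of it. Each point is a library. NADcapPro is lowest and SPAAC highest in each strain, except in WT for ENO1, where NADcapPro is highest (2754, 2732 and 3155 CPM), and for TDH1, where NADcapPro and SPAAC overlap.

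Enrichment of these transcripts by NADcapPro was measured against RNA-seq of that strain. It asks whether their level in the captured RNA was above or below that in RNA-seq, relative to the median transcript. A lower value does not mean absence from the captured RNA. TDH3 had the most counts of any transcript in each WT NADcapPro library. Calls were made by edgeR's quasi-likelihood test. They needed a change of at least 2-fold and a p no higher than 0.01 after Benjamini-Hochberg adjustment. In *xrn1-H41A*, 7 of the 10 transcripts were called lower in NADcapPro and 0 higher, where 9.87% of the 6046 transcripts tested were called lower and 14.3% higher. In WT, 3 of the 10 were called lower and 0 higher, against 9.85% lower and 13.1% higher among 6020. On the log2 scale, the median over the 10 genes was -1.31 in *xrn1-H41A* and -0.74 in WT, beside 0.02 and 0.01 over all transcripts tested. The 10 were chosen for abundance with earlier results known, so these shares describe them and carry no p. DESeq2 called the same transcripts among the 10 as edgeR in these and all other comparisons below. In WT, 2 of the 10 were higher at an unadjusted edgeR p under 0.05, and in *xrn1-H41A* 0 were.

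ENO2 had the lowest value in *xrn1-H41A*, a log2 fold change of -2.25 (SE 0.0383, edgeR adjusted p = 6.54e-16). CDC19 fell by 1.84, PDC1 by 1.70, PGK1 by 1.57 and FBA1 by 1.54 on the log2 scale in *xrn1-H41A* NADcapPro. TDH2, at -1.07 (SE 0.0350, edgeR adjusted p = 5.24e-13), and TPI1, at -1.04 (SE 0.0329, edgeR adjusted p = 3.64e-13), were near the threshold of 2-fold. With libraries scaled by totals alone both calls ended (-0.81 and -0.78), which left 5, while 1275 of 6046 transcripts were called higher and 318 lower. Not called were TDH3 at -0.80, TDH1 at -0.76 and ENO1 at -0.27, all with adjusted p under 0.01 in edgeR but under 2-fold. In WT, ENO2 was again lowest, at -1.46 (SE 0.0254, edgeR adjusted p = 6.46e-15), followed by PGK1 at -1.43 (SE 0.0277, edgeR adjusted p = 1.64e-14) and FBA1 at -1.01 (SE 0.0237, edgeR adjusted p = 9.69e-14). The call of FBA1 was lost without WT NADcapPro replicate 1 (-0.99) or WT RNA-seq replicate 3 (-0.995), which left 2 calls. It was also lost with libraries scaled by totals alone (-0.86), where 992 of 6020 transcripts were called higher and 403 lower. CDC19 (-0.81), PDC1 (-0.80), TDH2 (-0.68), TDH3 (-0.60) and TPI1 (-0.25) were lower by less than 2-fold. ENO1 and TDH1 had positive values in WT, 0.70 (SE 0.0446, edgeR adjusted p = 2.58e-09) and 0.41 (SE 0.0310, edgeR adjusted p = 1.62e-08), and were not called. When the counts of paralogs were summed, the TDH genes together were at -0.83 in *xrn1-H41A* and -0.59 in WT, and the ENO genes at -1.99 and -1.06.

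SPAAC without Dcs1 was compared with the same RNA-seq libraries, which both comparisons therefore share. All 10 transcripts had positive values in each strain, except that PGK1, ENO1 and CDC19 turned negative in WT when libraries were scaled by totals alone. In *xrn1-H41A*, 5 were called higher and 0 lower, where 4.39% of 5968 transcripts tested were called higher and 13.8% lower. In WT, 3 were called higher and 0 lower, against 4.77% higher and 15.9% lower among 5979. Medians of the 10 were 0.93 in *xrn1-H41A* and 0.73 in WT, beside 0.00 and 0.02 over all transcripts tested.

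TDH2 and TDH3 rose most in both strains. TDH2 reached 1.61 (SE 0.0362, edgeR adjusted p = 7.66e-14) in *xrn1-H41A* and 1.38 (SE 0.0235, edgeR adjusted p = 7.03e-16) in WT. TDH3 reached 1.55 (SE 0.0385, edgeR adjusted p = 1.72e-13) in *xrn1-H41A* and 1.40 (SE 0.0235, edgeR adjusted p = 5.63e-16) in WT. ENO2 rose by 1.46 in *xrn1-H41A* and 1.26 in WT on the log2 scale. TPI1 and FBA1 were called in *xrn1-H41A* (1.17 and 1.06) and not in WT, where TPI1 was 0.997 (SE 0.0218, edgeR adjusted p = 7.73e-15), just short of 2-fold, and FBA1 was 0.88 (SE 0.0231, edgeR adjusted p = 5.48e-14). Without WT SPAAC replicate 3 or WT RNA-seq replicate 2, TPI1 was called in WT too (1.01 and 1.01), which made 4 calls. The smallest values belonged to PGK1, at 0.46 in *xrn1-H41A* and 0.15 in WT, and to ENO1, at 0.50 in *xrn1-H41A* and 0.27 in WT. CDC19 was at 0.73 in *xrn1-H41A* and 0.29 in WT, PDC1 at 0.80 and 0.57, and TDH1 at 0.67 and 0.39. With libraries scaled by totals alone, PGK1 in WT turned to -0.16, ENO1 to -0.04 and CDC19 to -0.02, and the calls in *xrn1-H41A* came to 3, as they did with the trend on transcript length removed. Scaling by totals also ended the call of ENO2 in WT (0.94), which left 2. In *xrn1-H41A* 46 of 5968 transcripts were called higher and 1417 lower under that scaling, and in WT 71 of 5979 transcripts were called higher and 1349 lower.

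NADcapPro was also compared with SPAAC directly, assays that differ in the Dcs1 treatment before the same capture. The fit compares levels within each captured pool, and how much of a transcript Dcs1 removed was not measured. Most of the 10 were far lower in NADcapPro, relative to the median transcript. In *xrn1-H41A*, 9 of the 10 were called lower and 0 higher, against 17.8% lower and 18.7% higher among 6039 transcripts tested. In WT, 8 were called lower and 0 higher, against 11.3% lower and 13.3% higher among 6017. The median of the 10 was -2.59 in *xrn1-H41A* and -1.62 in WT, beside 0.04 and 0.02 over all transcripts tested. ENO2 fell most, with -3.88 (SE 0.0226, edgeR adjusted p = 2.76e-22) in *xrn1-H41A* and -2.87 (SE 0.0430, edgeR adjusted p = 7.25e-21) in WT. TDH2 was at -2.84 in *xrn1-H41A* and -2.20 in WT, TDH3 at -2.52 and -2.15, and FBA1 at -2.77 and -2.03. CDC19 was at -2.75 in *xrn1-H41A* and -1.25 in WT, PDC1 at -2.67 and -1.52, TPI1 at -2.37 and -1.39, and PGK1 at -2.20 and -1.72. TDH1 was called in *xrn1-H41A*, at -1.60 (SE 0.0418, edgeR adjusted p = 1.98e-15), and not in WT, at -0.13 (SE 0.0278, edgeR adjusted p = 2.30e-04). ENO1 was called in neither strain, with -0.94 (SE 0.0296, edgeR adjusted p = 2.21e-14) in *xrn1-H41A* and 0.28 (SE 0.0447, edgeR adjusted p = 1.13e-05) in WT. Each fit scales only the libraries compared, so its values differ a little from ratios of the levels given above. With libraries scaled by totals alone, where the median of all transcripts moved by 0.61 in WT, 5 of the 10 were still called in WT and TDH1 turned to 0.47. In *xrn1-H41A* the call of TDH1 ended (-0.80), which left 8. Under this scaling 2637 of 6039 transcripts were called higher and 318 lower in *xrn1-H41A*, and 1996 of 6017 transcripts were called higher and 196 lower in WT.

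**Figure D3:**
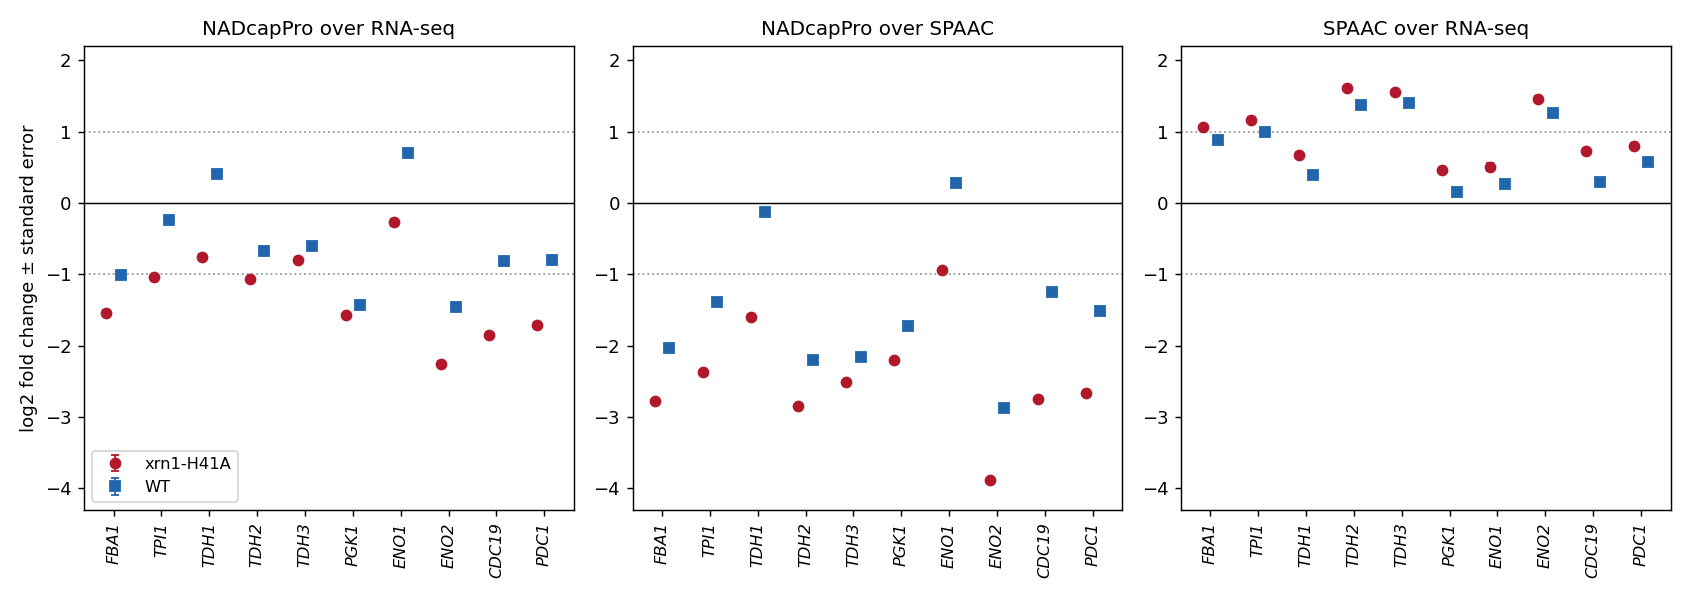
Log2 fold change (y axis) of each enzyme transcript (x axis) for NADcapPro over RNA-seq, NADcapPro over SPAAC and SPAAC over RNA-seq, in *xrn1-H41A* (circles) and WT (squares). Bars are standard errors, most of them smaller than the symbols, and dotted lines mark 2-fold. ENO2 is lowest in both NADcapPro panels, and ENO1 in WT lies above 0 in all 3 panels, though for SPAAC over RNA-seq not when libraries are scaled by totals alone (-0.04).

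The isoforms of a step did not move alike, so the composition of the 2 families was read within each library, where scaling plays no part. ENO1 made up 22.9, 21.8 and 22.4% of the ENO1 and ENO2 counts in the NADcapPro libraries of *xrn1-H41A*, 3.57, 3.60 and 3.73% in SPAAC and 6.38, 6.99 and 7.02% in RNA-seq. In WT it made up 31.4, 30.6 and 33.2% in NADcapPro, 4.98, 4.96 and 5.05% in SPAAC and 9.46, 9.50 and 9.34% in RNA-seq. The share was thus highest in NADcapPro, lowest in SPAAC and without overlap between the groups of a strain. TDH1 made up 0.557, 0.541 and 0.525% of the TDH counts in the NADcapPro libraries of *xrn1-H41A*, 0.271, 0.290 and 0.281% in SPAAC and 0.519, 0.528 and 0.499% in RNA-seq, where NADcapPro and RNA-seq overlapped. In WT the shares of TDH1 were 2.68, 2.70 and 2.39% in NADcapPro, 0.642, 0.633 and 0.660% in SPAAC and 1.28, 1.30 and 1.28% in RNA-seq, with no overlap.

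TDH2 made up 10.9, 11.1 and 10.7% of the TDH counts in the NADcapPro libraries of *xrn1-H41A*, 13.3, 13.3 and 13.5% in SPAAC and 12.8, 12.9 and 12.9% in RNA-seq. The WT values were 16.4, 16.5 and 16.0% in NADcapPro, 17.02, 16.96 and 17.2% in SPAAC and 17.2, 17.4 and 17.1% in RNA-seq, and SPAAC and RNA-seq of WT overlapped. Every *xrn1-H41A* library had a smaller share of TDH2 than every WT library. The exact permutation test gave its smallest possible p, 0.1 (two-sided), for each of these shares against RNA-seq except TDH1 in *xrn1-H41A* NADcapPro (0.2) and TDH2 in WT SPAAC (0.3). How far the division of shared reads by Kallisto sets these shares was not tested.

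**Figure D4:**
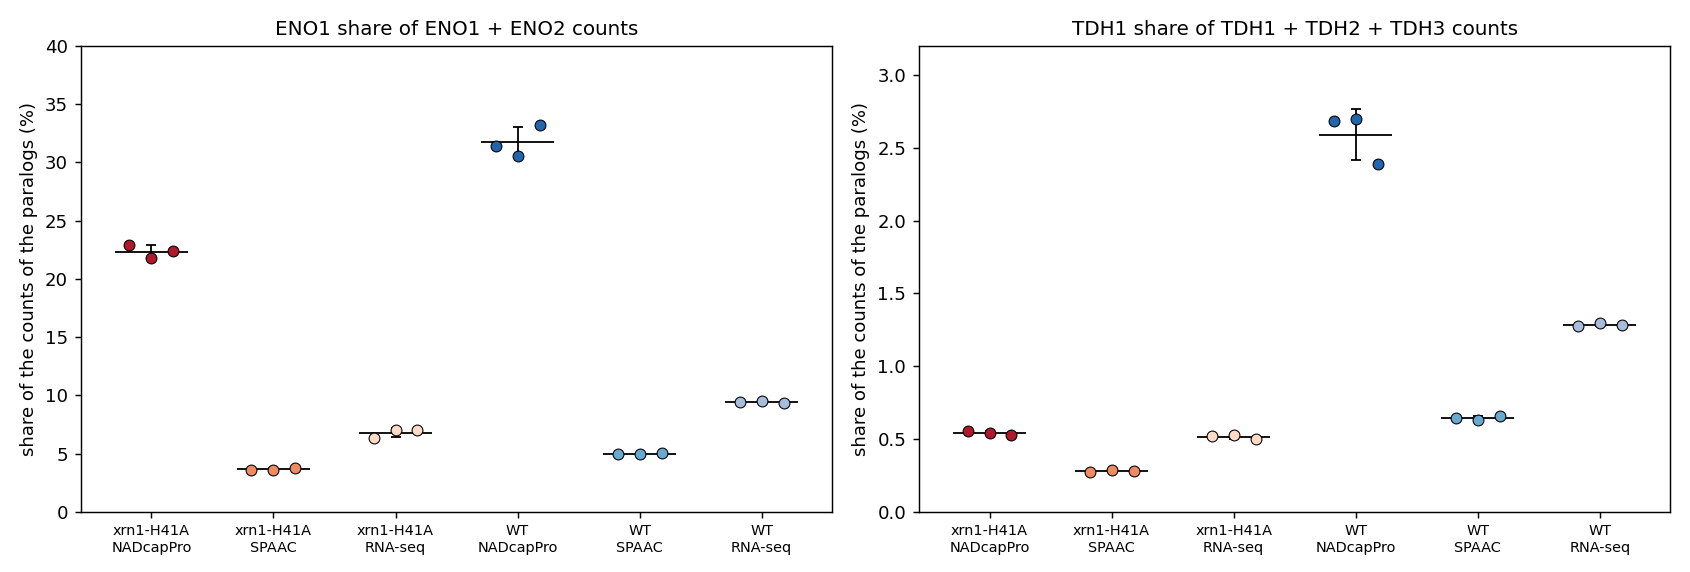
Share of ENO1 in the ENO counts (left) and of TDH1 in the TDH counts (right), in percent, for each library. Points are libraries, and lines with bars are the mean and SD of 3 libraries. ENO1 stands at 30.6% to 33.2% in WT NADcapPro and at 4.96% to 5.05% in WT SPAAC. TDH1 stands highest in WT NADcapPro.

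The strains were also compared by standard RNA-seq, the level against which enrichment was measured. Of the 10 transcripts, 4 were called lower in *xrn1-H41A* and 0 higher, where 2.53% of 5965 transcripts tested were called lower and 7.69% higher. The median of the 10 was -0.84, beside 0.00 over all transcripts tested. TDH1 fell most, to 84.0 to 91.9 CPM in *xrn1-H41A*, against 364 to 371 CPM in WT, a log2 fold change of -2.07 (SE 0.0391, edgeR adjusted p = 6.52e-15). TDH2 was at -1.17 (SE 0.0309, edgeR adjusted p = 9.47e-14), FBA1 at -1.07 (SE 0.0253, edgeR adjusted p = 3.55e-14) and ENO1 at -1.02 (SE 0.0514, edgeR adjusted p = 1.24e-10). The call of ENO1 was lost without *xrn1-H41A* RNA-seq replicate 1 (-0.94). PGK1 (-0.85), TPI1 (-0.84), TDH3 (-0.66), CDC19 (-0.60) and ENO2 (-0.50) were lower by less than 2-fold, with adjusted p under 0.01 in edgeR. PDC1 did not differ beyond its spread, at 0.03 (SE 0.0275, edgeR adjusted p = 0.334). Scaled by library totals alone, only TDH1 remained past 2-fold among the 10, at -1.89. Then 672 of 5965 transcripts were called higher and 97 lower. With paralogs summed, the TDH genes together were at -0.75 and the ENO genes at -0.54, which ended the calls of TDH1, TDH2 and ENO1.

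Enrichment was then compared between strains through the interaction of strain and assay, with 12 libraries in each edgeR fit. NADcapPro over RNA-seq was lower in *xrn1-H41A* than in WT for each of the 10 transcripts, and 2 passed both thresholds, against 2.94% called lower and 4.19% called higher among 6059 transcripts tested. They were TDH1, with -1.16 (SE 0.0514, edgeR adjusted p = 1.32e-12), and CDC19, with -1.02 (SE 0.0452, edgeR adjusted p = 1.31e-12). The call of CDC19 was lost without *xrn1-H41A* RNA-seq replicate 3 (-0.99), which left 1. ENO1 came near, at -0.95 (SE 0.0781, edgeR adjusted p = 4.04e-09), and was called without *xrn1-H41A* RNA-seq replicate 1 (-1.03) or WT NADcapPro replicate 1 (-1.06), which made 3. PDC1 (-0.89), TPI1 (-0.78), ENO2 (-0.77), FBA1 (-0.52) and TDH2 (-0.38) had smaller differences with adjusted p under 0.01 in edgeR. TDH3 was at -0.18 (SE 0.0682, edgeR adjusted p = 0.0219) and PGK1 at -0.13 (SE 0.0429, edgeR adjusted p = 0.00994). The median of the 10 was -0.78, beside 0.05 over all transcripts tested. In SPAAC enrichment, 0 of the 10 were called in either direction by edgeR, where 0.0998% of 6010 were called higher and 0.566% lower. At an unadjusted p under 0.05, 9 of the 10 were higher in *xrn1-H41A* by edgeR and 10 by DESeq2, which called 0 as well. CDC19 (edgeR adjusted p = 3.48e-05) and PGK1 (edgeR adjusted p = 3.63e-04) passed the threshold on p but not that of 2-fold. The others had adjusted p above 0.01 in edgeR. The values of the 10 lay between 0.06 (TDH3) and 0.36 (CDC19), with a median of 0.14, beside -0.04 over all transcripts tested. The median of the 10 was 0.22 with DESeq2's size factors, beside 0.03 over all transcripts. It was 0.24 without *xrn1-H41A* RNA-seq replicate 2, 0.27 without *xrn1-H41A* RNA-seq replicate 3, and 0.23, 0.23 and 0.25 without WT RNA-seq replicate 1, 2 or 3. Over all transcripts the median was then 0.05 to 0.06, above 0.

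The rest of the pathway was read from a list of 38 other genes, which holds upper glycolysis, phosphoglycerate mutase, paralogs of the 10, alcohol and acetaldehyde metabolism, glycerol formation, gluconeogenesis and the regulators RAP1, GCR1, GCR2 and TYE7. All 38 passed the filter in every comparison. In NADcapPro over RNA-seq, 8 higher and 13 lower were called in *xrn1-H41A* and 5 higher and 4 lower in WT, with medians of -0.20 and -0.28. Over all transcripts tested, 14.3% were called higher and 9.87% lower in *xrn1-H41A*. In WT 13.1% were called higher and 9.85% lower, shares to which the WT counts of the list came close. Among the main steps, GPM1, phosphoglycerate mutase, had -1.56 in *xrn1-H41A* and -1.17 in WT, and PFK2, a subunit of phosphofructokinase, -1.04 and -1.11, all called lower. Hexokinase HXK2 (-1.64 in *xrn1-H41A* and -0.95 in WT), phosphoglucose isomerase PGI1 (-1.42 and -0.85), the other phosphofructokinase subunit PFK1 (-1.20 and -0.90) and alcohol dehydrogenase ADH1 (-1.73 and -0.89) were called lower in *xrn1-H41A* and not in WT. Called higher in both strains were ADH2 (1.79 in *xrn1-H41A* and 2.51 in WT), which oxidizes ethanol, PCK1 (1.76 and 1.59), a gluconeogenic enzyme, ACS1 (1.82 and 1.28), an acetyl-CoA synthetase, and FBP1 (1.58 and 1.21), fructose-1,6-bisphosphatase. ADH1 and ADH2 share 18.4% of their 31-base words. The largest changes in *xrn1-H41A* also took in ERR3 (2.59), an enolase-related gene with 24.3% of words of its own, and GPD1 (-1.96), GPP1 (-1.92) and ACS2 (-1.89). In WT they took in TYE7 (-1.40). ERR3 averaged 8.44 CPM in *xrn1-H41A* NADcapPro, 0.97 in SPAAC and 1.51 in RNA-seq. In WT it averaged 1.38, 0.47 and 0.69 CPM in that order, so its values here and below rest on low counts.

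In SPAAC over RNA-seq, 4 higher and 2 lower of the 38 were called in *xrn1-H41A* and 0 higher and 4 lower in WT. Over all transcripts tested, 4.39% were called higher and 13.8% lower in *xrn1-H41A*, and 4.77% higher and 15.9% lower in WT. PFK2 was called lower in *xrn1-H41A* (-1.19) and WT (-1.79), as was GCR1 (-1.26 and -1.42), and PFK1 (-1.50) and PDC5 (-1.27) were called lower in WT. GPP1 (1.18) and ADH1 (1.13) were called higher in *xrn1-H41A*. GPM1 was at 0.61 in *xrn1-H41A* and 0.34 in WT, PGI1 at 0.15 and -0.29, and HXK2 at -0.03 and -0.42, none of them called. In both strains the SPAAC values of HXK2, PGI1, PFK1 and PFK2 were below that of each of the 10 enzymes, a description with no test. PFK1 (2964 nucleotides) and PFK2 (2880) are longer than any of the 10, which reach 1692, while HXK2 (1461) and PGI1 (1665) are not. Removing the trend on length took the lower calls over all transcripts from 826 to 311 in *xrn1-H41A* and from 950 to 281 in WT. Whether length accounts for the values of these genes was not tested.

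Directly against SPAAC, NADcapPro had 8 higher and 12 lower of the 38 called in *xrn1-H41A* and 4 higher and 9 lower in WT. Over all transcripts tested, 18.7% were called higher and 17.8% lower in *xrn1-H41A*, and 13.3% higher and 11.3% lower in WT. GPP1 (-3.27 in *xrn1-H41A* and -1.83 in WT), ALD6 (-3.14 and -1.67), ADH1 (-3.03 and -1.86) and GPM1 (-2.33 and -1.66) were called lower in both strains. ADH2 (1.65 in *xrn1-H41A* and 2.38 in WT) and ERR3 (2.95 and 1.42) were among those called higher in both. PFK1 (-0.54 and 0.45) and PFK2 (-0.02 and 0.54) were called in neither. Of the paralogs of CDC19 and PDC1, which stood far under them in level, PYK2 was at -0.79 in *xrn1-H41A* and -1.02 in WT, PDC5 at 0.75 and 0.64, and PDC6 at 1.20 and 0.04.

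Between strains in RNA-seq, 7 higher and 3 lower of the 38 were called, against 7.69% higher and 2.53% lower over all transcripts tested. The largest changes were those of ADH2 (2.44), PCK1 (2.25), GPM2 (-2.06) and ALD5 (1.91). ADH1 was called lower as well (-1.11), and GPM1 (-0.97), PFK2 (-0.54), PGI1 (-0.54), PFK1 (-0.41) and HXK2 (-0.13) were not called. The strain difference in NADcapPro enrichment had 3 higher and 3 lower of the 38 called, against 4.19% higher and 2.94% lower over all transcripts tested. These were GPD1 (-1.84), EMI2 (-1.24) and GPP1 (-1.21) among the lower and ERR3 (1.65), ERR1 and ERR2 (both 1.54) among the higher, the last of which are identical in sequence and give 1 value. In SPAAC enrichment FBP1 alone of the 38 was called, at -1.07, where 0.0998% of all transcripts tested were called higher and 0.566% lower.

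The transcripts outside the list with the most similar pattern were sought by the root mean square difference from the medians of the 10, over the log2 fold changes of NADcapPro over RNA-seq in *xrn1-H41A* and WT and SPAAC over RNA-seq in *xrn1-H41A* and WT. These 4 comparisons share RNA-seq libraries within a strain. Among 5941 transcripts with all 4 values, the closest were MAM33 (difference 0.0715), RPL16B (0.0741), BAT2 (0.0752), ETT1 (0.0981) and CPR6 (0.112). MAM33, which encodes a protein of the mitochondrial matrix, had -1.28, -0.76, 0.83 and 0.63 in that order. RPL16B, a gene of the large subunit of the ribosome, had -1.44, -0.69, 0.98 and 0.74. The differences of the 10 themselves ranged from 0.206 for FBA1 to 0.937 for ENO1.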

How the data were processed

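RNA of *xrn1-H41A* and WT yeast was sequenced after NADcapPro, after SPAAC and as standard RNA-seq (3 libraries each). The 2 libraries without ADPRC were left out, since their names in the file do not say which strain each is. Libraries were made with SMART-Seq HT and Nextera XT. The submitters' notes name fastp 0.23.2, kallisto 0.48.0 and R64, and the study's methods name hisat2 for removing rRNA reads. For 6106 transcripts the authors deposited TPM, lengths, effective lengths and Kallisto's estimated counts, which they had rounded. All 109908 counts used were whole. TPM was recomputed from counts and effective lengths. The word length of Kallisto is not given in the sources used here, and 31, its default, was taken. Of the transcripts, 6098 matched the RefSeq reference in name and length.

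The test was edgeR 4.0.16 under R 4.3.3 (TMM, filterByExpr, glmQLFit and glmQLFTest), fitting only the groups compared and adjusting p-values over all transcripts tested. Calls needed an adjusted p no higher than 0.01 and a log2 fold change of 1 or more in size. Standard errors were derived from the F statistic. The strain difference was an interaction in 12 libraries. Total counts were 13038320 to 33816015 in the 18 libraries, and floors of 3 counts cover counting error only, since reads carry no molecular identifiers.

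The 10 genes and the pathway list were chosen with earlier results of these data known. All 10 are named in every comparison. Of the other 38 genes, those called are named up to 4 per comparison by size, with the paralogs PYK2, PDC5 and PDC6 and the steps GPM1, HXK2, PGI1, PFK1, PFK2 and ADH1. Others of the 38 that the text names were chosen after their values were seen. The 5 transcripts closest to the median pattern are named. Shares were compared by an exact permutation test (SciPy 1.17.1). On counts simulated from each comparison's means and library sizes, the test recovered 200 of 200 transcripts changed 4-fold, with 0 false calls in each of the 9 comparisons. With a length trend added and removed it recovered 200 as well, with 1 false call in the strain difference in NADcapPro enrichment and 0 in the other 8. The simulation used a fixed dispersion, changed only transcripts with ample counts, raised as many as it lowered and added no shift in composition between groups. It checks the code on large changes and does not measure error near the 2-fold threshold or from scaling. Alternatives were DESeq2 size factors, library totals alone, no filter, DESeq2 1.42.0 (Wald test), a replicate block, removal of the trend on length (lowess, span 0.3), summed paralogs and each replicate left out.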

Additional observations from a re-analysis of the deposited data

Results flagged for a closer look

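The effect of NADcapPro over RNA-seq differed between *xrn1-H41A* and WT past both thresholds for 2 of the 10 transcripts. ENO1 is listed too, since its effects had opposite signs in the strains. TDH1 had an interaction of -1.16 on the log2 scale (edgeR adjusted p = 1.32e-12), with a log2 fold change of -0.76 in *xrn1-H41A* and 0.41 in WT. CDC19 had -1.02 (edgeR adjusted p = 1.31e-12), with -1.84 in *xrn1-H41A* and -0.81 in WT. ENO1 had -0.95 (edgeR adjusted p = 4.04e-09), with -0.27 in *xrn1-H41A* and 0.70 in WT. The value of ENO1 in *xrn1-H41A* is small and depends on scaling. By library totals alone, ENO1 was at 963, 921 and 947 CPM in the *xrn1-H41A* NADcapPro libraries. These overlapped *xrn1-H41A* RNA-seq, at 862, 990 and 1013 CPM, so the opposite signs are not firm. TDH1 also fell by 2.07 on the log2 scale in *xrn1-H41A* over WT RNA-seq. The level of TDH1 was lowest of the 10 in every group, and 73.7% of its words are its own. When paralogs were summed, the interaction was -0.22 for the TDH genes, -0.92 for the ENO genes and -1.0004 for CDC19 with PYK2.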

How the results depend on the processing

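Of the 90 values for single genes, 10 in each of 9 comparisons, DESeq2's size factors, DESeq2's Wald test and the replicate block left each one on its side of the thresholds and in its direction. Scaling by library totals alone lowered the calls among the 10 genes to 3 for SPAAC over RNA-seq in *xrn1-H41A* (5 in the text), to 2 in WT (3), to 5 and 2 for NADcapPro over RNA-seq in *xrn1-H41A* and WT (7 and 3), to 8 for NADcapPro over SPAAC in *xrn1-H41A* (9), to 5 for NADcapPro over SPAAC in WT (8), to 1 for *xrn1-H41A* over WT RNA-seq (4) and to 1 for the strain difference in NADcapPro enrichment (2). It ended 14 calls and turned the direction of 4 values, for SPAAC over RNA-seq in WT those of PGK1 (-0.16), ENO1 (-0.042) and CDC19 (-0.022), and for NADcapPro over SPAAC in WT that of TDH1 (0.47). This scaling shifts all transcripts together, by the amounts given with the depth. The calls over all transcripts came to 340 higher and 127 lower for the strain difference in NADcapPro enrichment, where the text has 254 and 178, and the other comparisons are given in the text. For the strain difference in NADcapPro enrichment they were 197 higher and 238 lower without a filter and 200 and 241 without WT NADcapPro replicate 1. For that in SPAAC enrichment, 6 higher and 34 lower became 11 and 25 with DESeq2's size factors, 14 and 26 by DESeq2's Wald test, and 9 to 14 higher and 15 to 26 lower without single RNA-seq libraries. Removing the trend on length left 3 calls for SPAAC over RNA-seq in *xrn1-H41A*, added that of TDH3 (-1.03) for NADcapPro over RNA-seq in *xrn1-H41A* and turned PDC1 in *xrn1-H41A* over WT RNA-seq to -0.10. With it removed, all transcripts called were 76 higher and 311 lower for SPAAC over RNA-seq in *xrn1-H41A* (262 and 826 in the text), 78 and 281 in WT (285 and 950), 457 and 436 for NADcapPro over RNA-seq in WT (787 and 593), and 7 and 21 for the strain difference in SPAAC enrichment (6 and 34). Without a filter on low counts, ENO1 passed the threshold for the strain difference in NADcapPro enrichment (-1.03). Summing paralogs replaced the values of single genes by those of the family, which follow its most abundant member. This turned TDH1 to -0.59 and ENO1 to -1.06 in WT NADcapPro over RNA-seq, and ENO1 to -2.39 in WT NADcapPro over SPAAC. Summing also ended 5 calls. These were TDH2 in *xrn1-H41A* NADcapPro over RNA-seq, TDH1, TDH2 and ENO1 in *xrn1-H41A* over WT RNA-seq, and TDH1 in the strain difference in NADcapPro enrichment. A call was gained by 7 values of TDH1 or ENO1 that kept their direction, and by the values of ENO1 that turned. Leaving out replicates one at a time, the calls ranged from 1 to 3 for the strain difference in NADcapPro enrichment, from 3 to 4 for *xrn1-H41A* over WT RNA-seq and for SPAAC over RNA-seq in WT, and from 2 to 3 for NADcapPro over RNA-seq in WT. The other counts of calls did not move. PDC1 in *xrn1-H41A* over WT RNA-seq ranged from -0.0035, without *xrn1-H41A* RNA-seq replicate 3, to 0.063. Beyond these, the cause was not tested. Deviations of same-numbered libraries did not correlate above 0.1 in every pair of any comparison, so the replicate numbers were not taken as pairs. Under the replicate block, the calls were 7 and 3 for NADcapPro over RNA-seq in *xrn1-H41A* and WT, 5 and 3 for SPAAC over RNA-seq, 9 and 8 for NADcapPro over SPAAC, 4 for *xrn1-H41A* over WT RNA-seq, and 2 and 0 for the strain differences in NADcapPro and SPAAC enrichment. At these depths counting error is small for the 10 genes, and the lowest level, of TDH1 in *xrn1-H41A* NADcapPro, was 49.0 to 51.2 CPM.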
